A study of Mus musculus with 4 samples.

Results

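The genes described here carry the adrenergic signal in cardiomyocytes, from the receptor to protein kinase A (PKA) and the proteins that hold it in place. They are 9 of the 23337 gene symbols in the files. *Adrb1*, *Adra1a* and *Adra1b* encode receptors, *Adcy5* and *Adcy6* adenylyl cyclases, *Prkaca* and *Prkar1a* subunits of PKA, and *Akap5* and *Akap6* A-kinase anchoring proteins. They were chosen by name and role, and one of them, *Akap5*, also because its reads were nearly absent from the deletion at 6 months of age. Its values are therefore given as a description and nothing is tested with them.

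Noradrenaline binds the β1-adrenergic receptor of the cardiomyocyte, which acts through the stimulatory G protein on adenylyl cyclase to make cyclic AMP (cAMP). cAMP frees the catalytic subunits of PKA from the regulatory subunits, and PKA then phosphorylates proteins of calcium handling and contraction, so that the heart beats faster and with more force. A-kinase anchoring proteins tie PKA to its targets. The α1-adrenergic receptors act instead through Gq and phospholipase C. Loss of β1-receptors from the cell surface is well known in failing hearts.

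RNA-seq was carried out on hearts of C57BL6/J mice of both sexes. Controls were PIMT fl/fl mice, whose PIMT gene (*Tgs1* in the files) carries loxP sites, at 2 and 6 months of age. csPIMT-/- mice of the same ages carry the same floxed alleles and in addition a Cre recombinase driven by the α-myosin heavy chain promoter, which acts in cardiomyocytes from late gestation, so PIMT stays intact in the other cells of the heart. Each of the 4 groups was 1 library made from the pooled RNA of 5 hearts, so a difference between groups could not be set against the spread between mice and carries no p-value.

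The files held normalized counts, that is, reads per gene divided by a size factor. Whole reads were recovered from them, between 29823073 and 40705783 per library. Differences are given as ratios, csPIMT-/- divided by the control library of that age, each with a 95% Clopper-Pearson interval (CI) that covers counting error only. A gene was compared where 1 of the 2 libraries held at least 10 reads, and it is called past 2-fold where its ratio was below 0.5 or above 2. All 9 genes were compared at both ages.

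*Tgs1* had 670 reads (control) and 130 reads (csPIMT-/-) in the 2-month libraries and 928 and 156 in the 6-month ones, so the level goes with the labelled genotype at both ages. Its ratios were 0.271 and 0.194, or 0.602 and 0.495 after subtraction of the GC trend described below. The natriuretic peptide genes *Nppa* and *Nppb*, which strained hearts raise, had ratios of 5.16 and 2.43 at 2 months and 4.42 and 8.36 at 6 months. The cardiomyocyte markers *Myh6*, *Tnnt2*, *Actc1*, *Tnni3* and *Ryr2* were abundant in each library. Their summed normalized counts lay between 903140, in the 6-month csPIMT-/- library, and 1192880, in the 2-month control. The 2-month control stood apart from the other libraries. The 4 atrial markers, with *Nppa* among them, summed to 40737 normalized counts there and to between 114957 and 348345 in the others (*Myl7* alone 1045 against 8084 to 42908), and the 4 white fat markers to 10.4 against 2031 to 12076. The 4 lung markers, 3 of them at 0 in the 2-month control, reached 1154 in the 2-month csPIMT-/- library and at most 15.6 elsewhere. Sex-linked RNAs were uneven too. The Y-linked gene *Uty*, looked up after the data were seen, had 2254 normalized counts in the 2-month control and between 87.5 and 300 in the other libraries, while the X-inactivation RNA *Xist* had 805 against 6369 to 25639. Ratios also followed base composition: across genes the log2 ratio rose with the GC content of the longest transcript, with a Spearman rho of 0.580 at 2 months and 0.607 at 6 months. For the 9 genes the ratios are therefore also given with the trend on GC content subtracted, as they are for other genes where this ended a call, turned the direction or moved the value by over 1.5 times. Some are given against the control of the other age too. The part of tissue make-up, sex and GC content in the differences below was not tested.

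*Akap5* was close to lost from csPIMT-/- hearts, and *Adrb1* and *Adra1b* were lower by more than 2-fold at 6 months, while the cyclases and PKA subunits stayed within 2-fold at both ages. At 2 months 1 of the 9 genes was past 2-fold lower and 0 were past 2-fold higher. Of all 15152 genes compared at that age, 23.0% were past 2-fold lower and 16.4% higher, 39.5% in all. At 6 months 3 of the 9 were lower and 0 higher, against 25.7% and 16.0% of 15218 genes, 41.7% in all. With the GC trend subtracted these counts of the 9 genes were again 1 and 0 at 2 months and 3 and 0 at 6 months, against 11.5% lower and 14.9% higher of all genes at 2 months and 13.2% and 14.2% at 6 months. The median ratio of the 9 genes was 0.887 at 2 months and 0.595 at 6 months, where that of all genes was 0.978 and 0.976. *Akap5* was the 1 gene past 2-fold at both ages, and 16.6% of all genes were past 2-fold lower at both. Since the 9 genes were chosen with results of these libraries known, their counts describe them and show nothing about the pathway beyond them. In RNA of whole hearts, fewer cells of a type and less RNA per cell cannot be told apart.

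**Figure D1:**
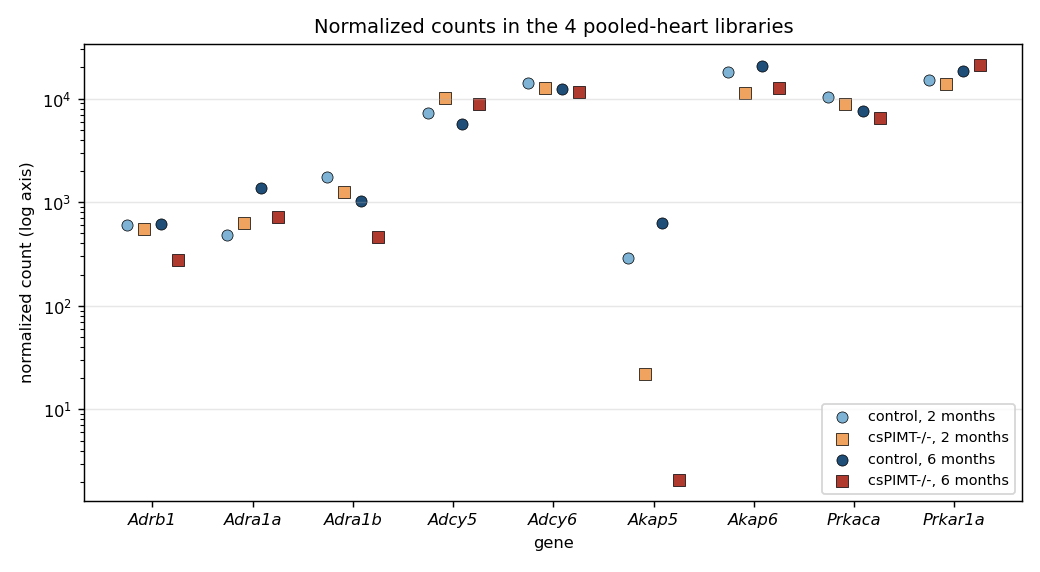
Normalized counts (log axis) of the 9 genes in the 4 libraries, 1 point per library, with circles for control and squares for csPIMT-/- hearts. *Akap5* runs from 633 in the 6-month control down to 2.08 in the 6-month csPIMT-/- library, while *Adcy6* stays between 11603 and 14011.

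The stretches of DNA just before the starts of 3 of these genes are shown for the members that the results turn on: *Akap5*, the anchor that was nearly lost, *Akap6*, the anchor that was not, and *Adrb1*, the receptor that was past 2-fold lower at 6 months. Each is the 250 bases before the RefSeq start on the plus strand of GRCm38.p6, 5′ to 3′, at chr12:76324641-76324890, chr12:52699133-52699382 and chr19:56721867-56722116. Capitals mark 2 motifs found on either strand, the half-site of the cAMP response element (TGACG, or CGTCA on the other strand) and the half-site of nuclear receptors (AGGTCA, or TGACCT).
Akap5: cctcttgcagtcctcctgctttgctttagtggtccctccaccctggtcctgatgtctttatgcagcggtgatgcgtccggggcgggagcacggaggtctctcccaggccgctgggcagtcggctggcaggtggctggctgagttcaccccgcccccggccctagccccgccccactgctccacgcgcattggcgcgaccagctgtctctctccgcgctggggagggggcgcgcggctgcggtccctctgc
Akap6: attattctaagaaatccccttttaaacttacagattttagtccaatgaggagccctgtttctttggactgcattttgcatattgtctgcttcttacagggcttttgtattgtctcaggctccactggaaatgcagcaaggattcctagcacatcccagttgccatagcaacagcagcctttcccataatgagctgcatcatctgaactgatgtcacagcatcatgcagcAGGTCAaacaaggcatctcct
Adrb1: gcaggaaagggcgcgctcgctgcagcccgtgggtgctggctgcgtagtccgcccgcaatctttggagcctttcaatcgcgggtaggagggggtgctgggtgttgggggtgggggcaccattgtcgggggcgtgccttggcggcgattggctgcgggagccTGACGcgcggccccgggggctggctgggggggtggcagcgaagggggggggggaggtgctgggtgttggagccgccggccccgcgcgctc
The *Akap5* stretch held neither motif and had a GC content of 70%. The *Adrb1* stretch, with 74%, held 1 cAMP half-site, which begins 90 bases before the start. *Akap6*, with 43.6%, held 1 nuclear receptor half-site, which begins 21 bases before its start. Of 32851 mouse promoter stretches of this length, 17.8% held the cAMP half-site and 14.0% the nuclear receptor half-site. RefSeq promoters were matched for 7 of the 9 genes, and no entry was found for *Adra1a* and *Adcy6* in the set used. The full cAMP response element, TGACGTCA, contains the half-site. It was in a promoter of 1 of the 7 genes, *Prkar1a*, and of 1.77% of the 27025 genes with promoter stretches. A direct repeat of the nuclear receptor half-site with 1 base between is the form bound by PPARs. It was in a promoter of 0 of the 7 genes and of 0.0407% of those 27025 genes. A match in letters is a description and not a site.

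AKAP5 anchors PKA, and with it the phosphatase calcineurin, at the plasma membrane close to β-adrenergic receptors and L-type calcium channels. Its gene lies on chromosome 12 from 76324891 to 76334153 (GRCm38, plus strand, protein coding). *Akap5* had normalized counts of 287 (control) and 22.2 (csPIMT-/-) at the younger age and of 633 (control) and 2.08 (csPIMT-/-) at the older. In reads these were 332, 18, 720 and 2, so the csPIMT-/- libraries held 18 reads and 2 reads in all. Both csPIMT-/- libraries lay far below both controls. The ratio was 0.0757 (CI 0.0443–0.122) for the 2-month pair and 0.0032 (CI 0.000387–0.0116) for the 6-month pair. Against the control of the other age it was 0.0339 and 0.0071, and with the GC trend subtracted 0.14 and 0.00823. Transcripts of its GC content, 44%, were low as a class. The 1412 genes within 1 percentage point of it had a median ratio of 0.469 at 6 months, and 0.354% of them had a lower ratio than *Akap5*. At 2 months that median was 0.530 over 1397 genes, and 0.859% of these were lower. *Akap5* was chosen for its low level at 6 months, so its place among these genes follows from that choice and tests nothing.

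Between the ages *Akap5* was higher in the older control and lower in the older csPIMT-/- library. The 6-month control had 2.11 times the level of the 2-month control (CI 1.85–2.41), and the 6-month csPIMT-/- library 0.0912 times that of the 2-month csPIMT-/- library (CI 0.0103–0.381). Between the controls 2 of the 9 genes, *Akap5* and *Adra1a*, were past 2-fold higher at the later age and 0 lower, where 8.15% and 5.21% of all 15132 genes were. Between the csPIMT-/- libraries 3 of the 9, *Akap5*, *Adrb1* and *Adra1b*, were past 2-fold lower and 0 higher, where 8.73% and 9.17% of 15057 genes were. With the GC trend subtracted, 1 of the 9 was higher between the controls (all genes 7.22% higher and 4.93% lower), since *Akap5* stood at 1.88, and 2 were lower between the csPIMT-/- libraries (all genes 8.87% lower and 8.2% higher), since *Adrb1* stood at 0.515. The genotype and the age comparisons share libraries, so they are not independent of each other. Whether the pools differ here by age, sex or mice cannot be told apart.

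The genes around *Akap5* did not share its level. *Mthfd1*, an enzyme of folate metabolism whose gene ends 5.09 kb before *Akap5*, had ratios of 1.2 (CI 1.14–1.26) for the 2-month pair and 1.22 (CI 1.16–1.28) for the 6-month pair, but 0.967 and 0.939 once the GC trend was subtracted. On the other side *Zbtb25*, 13.6 kb away, had ratios of 0.939 and 0.953, both with intervals that held 1, but 2.31 and 2.65 once the GC trend was subtracted. *Zbtb1*, a zinc finger protein gene 36.1 kb away, had ratios of 0.302 (CI 0.256–0.353) and 0.318 (CI 0.277–0.363), or 0.718 and 0.86 once the GC trend was subtracted, which is no longer past 2-fold. *Hspa2* and *Syne2*, at 70 and 214 kb, had ratios between 0.522 and 0.883. *Esr2* held at most 11 reads in any library. No gene of the files overlapped any of the 9 genes in GENCODE M21.

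**Figure D2:**
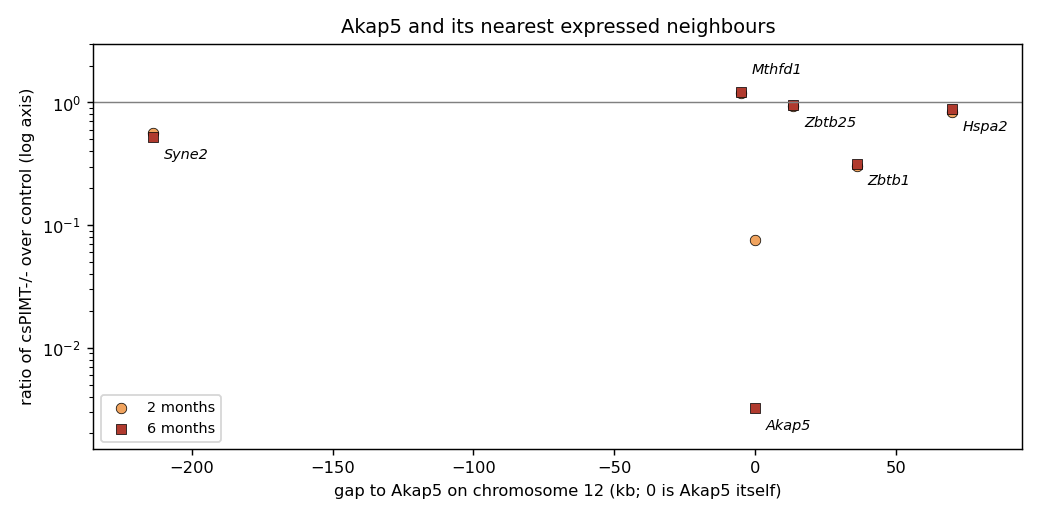
Ratio of csPIMT-/- over control (log axis) of *Akap5* and its nearest expressed neighbours against the gap to *Akap5* in kilobases, with circles for 2 months and squares for 6 months. *Esr2*, with at most 11 reads in a library, is not drawn, and the drawn neighbours lie between 0.302 and 1.22 where *Akap5* lies at 0.0757 and 0.0032.

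*Akap6* encodes mAKAP, a large anchor on the nuclear envelope of muscle cells that holds PKA together with phosphodiesterase and calcineurin. Its gene spans chromosome 12 from 52699383 to 53155599 on the plus strand. It had normalized counts of 18259 (control) and 11239 (csPIMT-/-) at the younger age and of 20567 (control) and 12554 (csPIMT-/-) at the older. Both csPIMT-/- libraries were below both controls. The ratio was 0.603 (CI 0.589–0.618) for the 2-month pair and 0.595 (CI 0.582–0.608) for the 6-month pair, and with the GC trend subtracted it passed to the other side of 1, at 1.11 and 1.25. Its transcript has a GC content of 43.8%, close to that of *Akap5*, and 59.1% and 64.6% of the genes within 1 percentage point of it had lower ratios at 2 and 6 months.

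**Figure D3:**
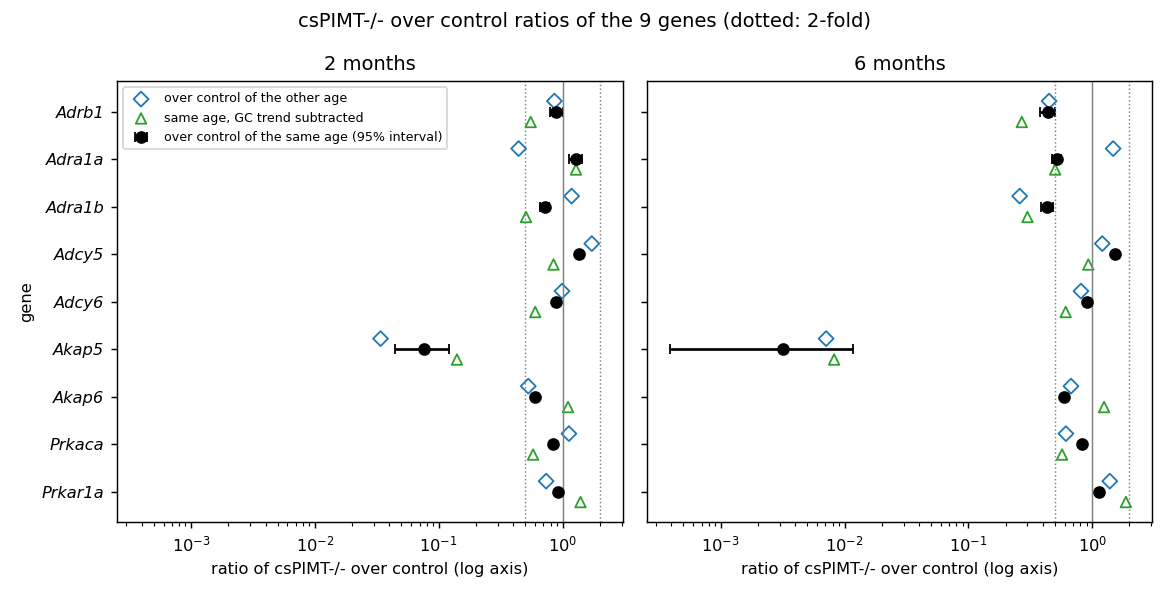
Ratio of csPIMT-/- over control (log axis) of the 9 genes at 2 months (left) and 6 months (right), as black points with 95% counting intervals, with diamonds for the control of the other age and triangles for ratios with the GC trend subtracted. *Akap5* lies left of the 2-fold line under all of these, while *Adra1a* changes side of 1 with the control library, from 0.515 to 1.48 at 6 months.

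The receptor *Adrb1* encodes the β1-adrenergic receptor, the main β-receptor of the cardiomyocyte (chromosome 19 from 56722199 to 56733113, plus strand). It had normalized counts of 607 (control) and 549 (csPIMT-/-) at the younger age and of 617 (control) and 278 (csPIMT-/-) at the older. The 6-month csPIMT-/- library was the low one, and the other 3 lay within a narrow range. The ratio was 0.887 (CI 0.786–0.9999) for the 2-month pair and 0.438 (CI 0.379–0.505) for the 6-month pair. At 6 months *Adrb1* and *Adra1b* were thus past 2-fold lower by a small margin, and the interval of *Adrb1* held 0.5. Its GC-rich transcript, at 58.8%, belongs to a class that was higher in csPIMT-/- hearts: the 836 genes within 1 percentage point had a median ratio of 1.69 at 6 months, and 3.23% of them had a lower ratio. With the GC trend subtracted its ratios were 0.553 and 0.27. The 2 controls differed by a ratio of 0.973, so the choice of control moved the 6-month ratio only to 0.449.

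*Adra1b*, an α1-adrenergic receptor gene on chromosome 11 (43774606 to 43901210, minus strand), had normalized counts of 1736 (control) and 1267 (csPIMT-/-) at the younger age and of 1036 (control) and 460 (csPIMT-/-) at the older. The level was lower in csPIMT-/- hearts at each age and lower at 6 than at 2 months in each genotype. The ratio was 0.716 (CI 0.663–0.772) for the 2-month pair and 0.432 (CI 0.387–0.483) for the 6-month pair, and 0.507 and 0.3 with the GC trend subtracted. Set against the older control, the 2-month library stood at 1.18. The older library over the younger gave 0.57 (CI 0.53–0.613) in controls and 0.353 (CI 0.315–0.395) in csPIMT-/- hearts.

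*Adra1a*, the other α1-receptor gene described here (chromosome 14 from 66635251 to 66771168, plus strand), had a ratio whose direction turned with the control it was set against. It had normalized counts of 479 (control) and 624 (csPIMT-/-) at the younger age and of 1366 (control) and 722 (csPIMT-/-) at the older. The 6-month control was high and the other 3 libraries lay near each other. The ratio was 1.28 (CI 1.13–1.44) for the 2-month pair and 0.515 (CI 0.47–0.564) for the 6-month pair, which fell just short of 2-fold, and 1.28 and 0.502 after subtraction of the GC trend. Against the control of the other age the ratios were 0.442 and 1.48. The 2 controls differed by a ratio of 2.72 (CI 2.47–3), and 13.4% of all genes were more than 2-fold different between them in either direction. Between the csPIMT-/- libraries the older had 1.13 times the level of the younger.

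The cyclase genes stayed within 2-fold, *Adcy6* below 1 and *Adcy5* above 1 before the GC trend was subtracted. *Adcy6* (chromosome 15 from 98589973 to 98610076, minus strand) and *Adcy5* (chromosome 16 from 35154877 to 35305738, plus strand) encode the main adenylyl cyclases of the adult heart, both inhibited by calcium. *Adcy6* had normalized counts of 14011 (control) and 12726 (csPIMT-/-) at the younger age and of 12431 (control) and 11603 (csPIMT-/-) at the older. Its ratios were 0.89 (CI 0.869–0.913) and 0.909 (CI 0.887–0.932), or 0.602 and 0.611 with the GC trend subtracted. *Adcy5* had normalized counts of 7219 (control) and 10073 (csPIMT-/-) at the younger age and of 5656 (control) and 8886 (csPIMT-/-) at the older. Both csPIMT-/- libraries were above both controls, with ratios of 1.37 (CI 1.33–1.41) and 1.53 (CI 1.48–1.58). Its transcript is the richest in GC of the 9, at 59.5%, and with the GC trend subtracted the ratios fell on the other side of 1, at 0.845 and 0.931.

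The PKA subunits were the most abundant of the 9 genes per length and lay within a ratio of 0.833 to 1.13. *Prkaca* encodes the main catalytic subunit (chromosome 8 from 83972993 to 83996443, plus strand). It had normalized counts of 10380 (control) and 8825 (csPIMT-/-) at the younger age and of 7583 (control) and 6498 (csPIMT-/-) at the older. The ratios were 0.833 (CI 0.809–0.858) and 0.835 (CI 0.808–0.863), and 0.578 and 0.571 with the GC trend subtracted. The older control had 0.698 times the level of the younger, and against it the 2-month csPIMT-/- library stood at 1.13. *Prkar1a*, the type I regulatory subunit (chromosome 11 from 109649405 to 109669656, plus strand), had normalized counts of 15010 (control) and 13950 (csPIMT-/-) at the younger age and of 18312 (control) and 21247 (csPIMT-/-) at the older. Its level was thus highest in the 6-month csPIMT-/- library. The ratios were 0.911 (CI 0.89–0.933) for the 2-month pair and 1.13 (CI 1.11–1.15) for the 6-month pair, and with the GC trend subtracted both were above 1, at 1.4 and 1.87. From 2 to 6 months *Prkar1a* differed by a ratio of 1.17 (CI 1.14–1.19) in controls and 1.48 (CI 1.45–1.52) in csPIMT-/- hearts.

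**Figure D4:**
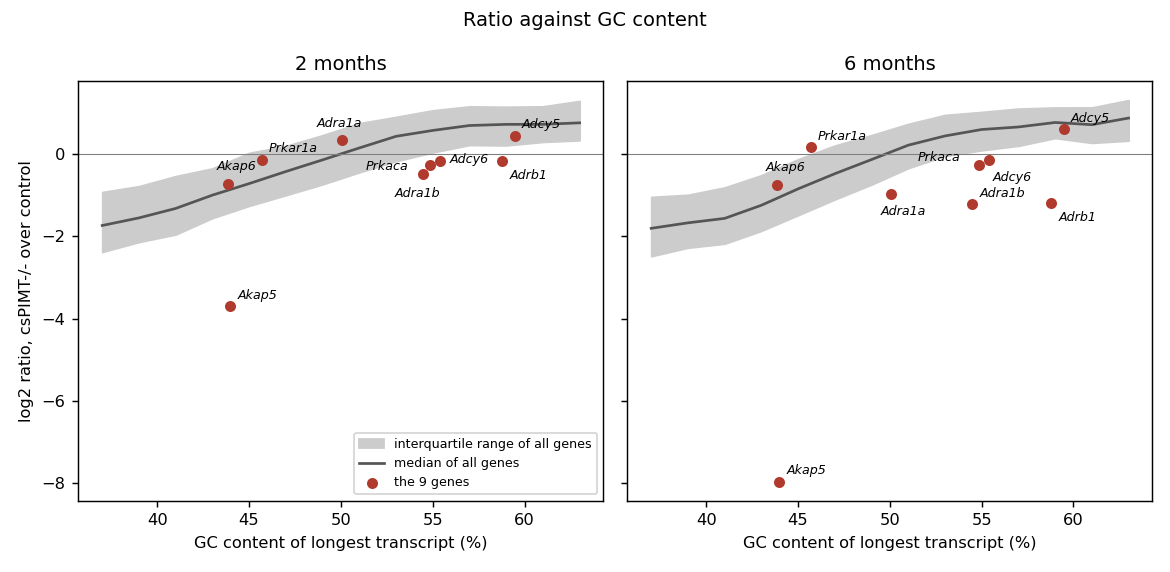
Log2 ratio of csPIMT-/- over control against the GC content of the longest transcript, in percent, at 2 months (left) and 6 months (right), with the median (line) and interquartile range (grey) of all genes compared and the 9 genes as red points. At 6 months *Akap6* and *Adcy5* lie within the grey band and *Prkar1a* above it. *Akap5*, *Adrb1*, *Adra1a*, *Adra1b*, *Adcy6* and *Prkaca* lie below the band.

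Levels of different genes were compared as normalized counts per kilobase of the longest annotated transcript. In the 2-month control the order was *Prkaca* (4561), *Prkar1a* (4273), *Adcy6* (2320), *Akap6* (1230), *Adcy5* (1030), *Adra1b* (521), *Adrb1* (205), *Adra1a* (112) and *Akap5* (43). *Prkar1a* came first in the other 3 libraries, and *Akap5* came last in all 4. In csPIMT-/- hearts of both ages *Adcy5* stood above *Akap6*, with 1437 against 757 at 2 months and 1268 against 846 at 6 months, where in controls *Akap6* stood higher. These levels were not adjusted for GC content, which was 59.5% for *Adcy5* and 43.8% for *Akap6*. With the GC trend subtracted, the csPIMT-/- over control ratios were 0.845 and 0.931 for *Adcy5* and 1.11 and 1.25 for *Akap6*. The part of GC content in this change of order was not tested. *Adra1b* stood far above *Adra1a* at 2 months, but at 6 months they were 311 and 319 in the control and 138 and 169 in csPIMT-/- hearts. The transcript actually used can be shorter than the longest one, so neighbours in this order are not firmly placed, and no replicate shows the spread of a level.

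The other genes of the pathway were taken from a list of 90 genes by role, written with earlier results of these data known. At 2 months 19 of the 83 compared were past 2-fold lower and 11 higher, and at 6 months 24 of 84 lower and 12 higher, shares close to those of all genes. With the GC trend subtracted 9 were lower and 9 higher at 2 months, where 11.5% and 14.9% of all genes were. At 6 months 14 were then lower and 10 higher, where 13.2% and 14.2% of all genes were. At both ages 12 of 83 were past 2-fold lower and 3 (*Adra2c*, *Prkar1b* and *Fxyd1*) higher, against 16.6% and 7.12% of all genes. Their median ratio was 0.89 at 2 months and 1.04 at 6 months.

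**Figure D5:**
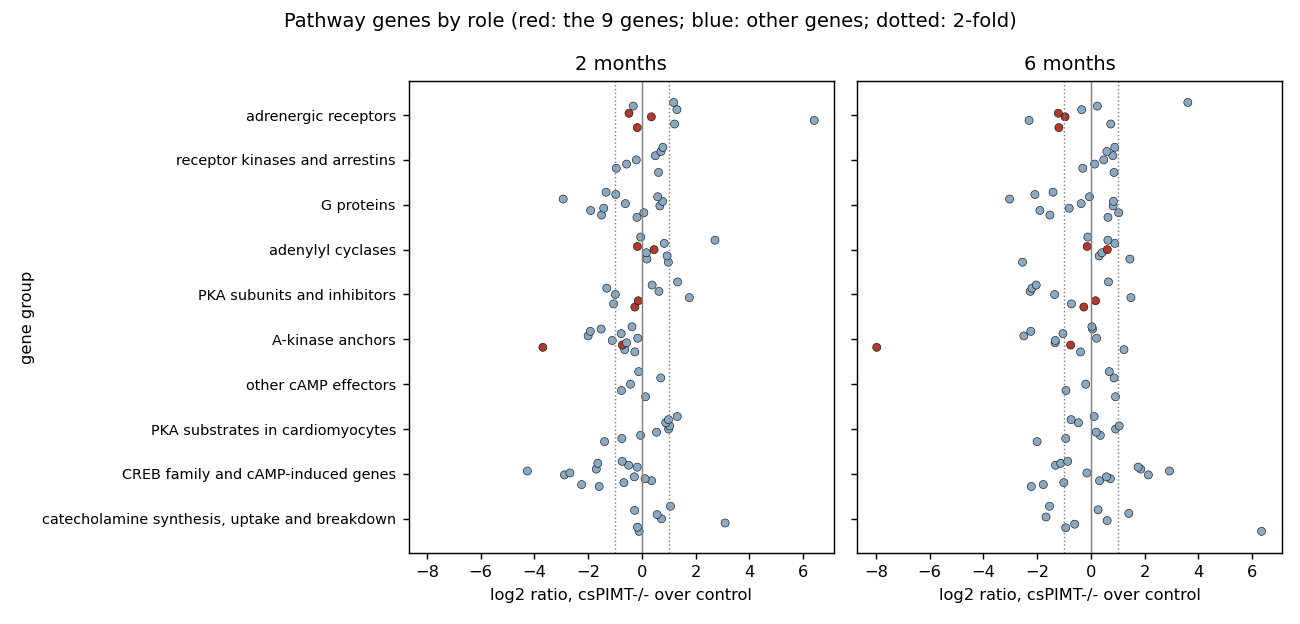
Log2 ratio of csPIMT-/- over control for the genes of each role at 2 months (left) and 6 months (right), with 0.5 reads added to both counts, the 9 genes in red and other genes in blue, spread vertically only to keep points apart. Most A-kinase anchors lie left of 0, whereas genes of the CREB family and its targets lie on both sides at 6 months.

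Among the other receptors, *Adrb3*, the β3-receptor of fat cells, had 2, 152, 42 and 7 reads in the 2-month control, the 2-month csPIMT-/-, the 6-month control and the 6-month csPIMT-/- library. It was high where the brown fat gene *Ucp1* was high, with 8.65, 1766, 93.2 and 12.5 normalized counts in the same order. *Adra1d*, an α1-receptor of smooth muscle, had ratios of 2.47 (CI 2.09–2.92) and 0.789 (CI 0.647–0.961). Subtraction of the GC trend gave 1.42 and 0.456, so that the call passed from higher at 2 months to lower at 6 months. For *Adrb3* it gave 57.9 and 0.137 in place of 106 and 0.192.

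Of the remaining A-kinase anchors 10 were compared. At 2 months 4 of them were past 2-fold lower and 0 higher, where 23.0% and 16.4% of all genes were, and at 6 months 5 were lower and 1 higher, where 25.7% and 16.0% of all genes were. After subtraction of the GC trend 2 were lower and 0 higher at 2 months, where 11.5% and 14.9% of all genes were. At 6 months 2 were then lower and 1 higher, where 13.2% and 14.2% of all genes were. *Akap9*, which anchors PKA at the centrosome and Golgi and at a potassium channel, had normalized counts of 3752 (control) and 954 (csPIMT-/-) at the younger age and of 6530 (control) and 1190 (csPIMT-/-) at the older, with ratios of 0.249 (CI 0.231–0.269) and 0.178 (CI 0.167–0.189). *Akap11* had ratios of 0.264 and 0.213, and *Akap8*, a nuclear anchor, 0.465 and 0.4. With the GC trend subtracted these were 0.417 and 0.331 for *Akap9*, 0.588 and 0.544 for *Akap11*, and 0.538 and 0.46 for *Akap8*. *Akap7* and *Akap10* were past 2-fold lower at 6 months only, at 0.398 and 0.487, and at 1.16 and 0.776 with the GC trend subtracted. *Akap12* had a ratio of 0.349 (CI 0.333–0.366) for the 2-month pair and 1.05 (CI 1.01–1.09) for the 6-month pair, or 0.292 and 0.833 with the trend subtracted. *Akap2* was the 1 anchor past 2-fold higher, at 6 months, with a ratio of 2.35 (CI 2.3–2.4) after 0.641 at 2 months, but this gene is joined to *Palm2* in some annotations and the counting could have split their reads. *Akap1*, the anchor of the mitochondrial outer membrane, *Akap8l* and *Akap13* had ratios between 0.767 and 1.16, or between 0.56 and 0.943 with the trend subtracted. The lowest ratio among these 10 was the 0.178 of *Akap9*, against 0.0032 for *Akap5*.

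The other subunits of PKA differed among themselves. *Prkacb*, the second catalytic subunit, had ratios of 0.481 (CI 0.455–0.508) for the 2-month pair and 0.607 (CI 0.578–0.638) for the 6-month pair. Once the GC trend was subtracted these were 0.76 and 1.05, so the first was no longer past 2-fold and the second lay above 1. *Prkar2a*, the type II regulatory subunit to which most A-kinase anchors bind, had normalized counts of 2765 (control) and 1422 (csPIMT-/-) at the younger age and of 3255 (control) and 1314 (csPIMT-/-) at the older. Its ratios were 0.504 (CI 0.471–0.539) and 0.393 (CI 0.369–0.419), and 0.599 and 0.468 with the GC trend subtracted. *Prkar2b* had ratios of 1.55 and 0.208, and *Prkar1b*, at no more than 240 normalized counts, 3.4 and 2.82. Once the GC trend was subtracted, *Prkar2b* stood at 2.76 and 0.423 and *Prkar1b* at 2.25 and 1.86. *Pkia*, which encodes a peptide inhibitor of PKA, had ratios of 0.404 and 0.219, but its transcript has a GC content of 39.1% and the ratios were 1.15 and 0.679 with the GC trend subtracted. Of the other cyclases, *Adcy7* had ratios of 1.78 and 1.86, and *Adcy4* and *Adcy9* ratios between 0.927 and 1.33, or between 0.592 and 0.943 with the trend subtracted. *Adcy3* had ratios of 1.92 and 1.24, or 1.24 and 0.798 with the trend subtracted. *Adcy1* was at 1.98 (CI 1.76–2.22) for the 2-month pair and 0.171 (CI 0.146–0.2) for the 6-month pair. Its normalized counts were 439 (control) and 885 (csPIMT-/-) at the younger age and 1119 (control) and 197 (csPIMT-/-) at the older. The 6-month control was thus the highest library and the 6-month csPIMT-/- library the lowest.

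Upstream and downstream of the cyclases, the genes past 2-fold in the same direction at both ages were mostly lower, as they were over all genes. Of all genes compared at both ages, 16.6% were past 2-fold lower at both and 7.12% higher. The inhibitory G protein subunits *Gnai1* and *Gnai3* had ratios of 0.352 and 0.266 at 2 months and 0.348 and 0.269 at 6 months, or between 0.602 and 0.84 with the GC trend subtracted. *Rgs2*, which quenches Gq signalling, had normalized counts of 3710 (control) and 496 (csPIMT-/-) at the younger age and of 2128 (control) and 268 (csPIMT-/-) at the older. Its ratios were 0.131 (CI 0.118–0.145) and 0.123 (CI 0.108–0.14), and they remained below 0.5 with the GC trend subtracted, at 0.245 and 0.264. *Rgs5* had ratios of 0.396 and 0.377, and 0.947 and 1.02 with the trend subtracted. *Pln*, which encodes phospholamban, the PKA target that restrains the calcium pump SERCA, had ratios of 0.381 (CI 0.376–0.386) and 0.25 (CI 0.247–0.253), and 1.14 and 0.8 with the GC trend subtracted. *Fxyd1*, which encodes phospholemman, the PKA target on the sodium pump, had ratios of 2.05 and 2.08, and 1.29 and 1.3 with the trend subtracted. *Creb1*, the cAMP response element binding protein, had ratios of 0.331 and 0.215, its relative *Crem* 0.21 and 0.293, and the phosphodiesterase *Pde4b* 0.32 and 0.46. With the GC trend subtracted *Crem* at 2 months (0.413) and *Pde4b* at 2 months (0.482) stayed past 2-fold, and the other ratios of these 3 genes lay between 0.649 and 0.906.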

How the data were processed

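Hearts of 4 groups of mice were profiled by directional, poly(A)-selected RNA-seq, 1 library of 5 pooled hearts per group. Per the paper and the labels, the authors trimmed adapters, removed poor and ribosomal reads, aligned the rest to mm10 with STAR, counted reads per gene with HTSeq 0.6.1p1 and a UCSC annotation, and used DESeq2. Whether counting used strand, and the version of STAR, are not given in the sources used here. The authors deposited a normalized count per gene and library, a signal scaled by a size factor. The 6-month csPIMT-/- column is headed as read counts but is scaled alike. Of the values, 100% were whole multiples (tolerance 1e-06 reads) of what 1 read is worth in that library, and division by it gave whole reads.

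The 2 libraries of each ratio were scaled by the median of ratios (Python 3.11.15, SciPy 1.17.1). Log2 ratios had 0.5 reads added. GC content and length came from the longest transcript in GENCODE M21 (GRCm38, the build of mm10), matched by symbol for 22872 of 23337 genes, and the GC trend was fitted by lowess with a span of 0.3 (statsmodels 0.14.6). Promoters came from RefSeq (GRCm38.p6). The code was tested on simulated data. With 1 library a group, no gene was tested at 1 age. A limma 3.58.1 fit of log2 reads + 1 on genotype and age, with 1 residual degree of freedom, called 2666 of 14935 genes lower and 1810 higher at an adjusted p below 0.05, and edgeR 4.0.16 on the recovered reads 2508 and 1619. In both fits the 2 ages are the only repeats of a genotype, so these counts do not rest on the spread between mice. Sex, tissue make-up and GC content were not in the model. No p from either fit was read for the genes described, since they and the lists were chosen with earlier results of these data known. Genes named beside the 9 were receptor, cyclase, PKA and anchor paralogs with at least 100 reads in a library, other listed genes with that depth past 2-fold in 1 direction at both ages, the 3 nearest expressed genes on each side of *Akap5*, and the 5 genes with the profile most like it. *Th*, *Dbh*, *Adrbk1*, *Adrbk2*, *Fos*, *Nr4a2*, *Per1* and the genes with opposite ratios at the 2 ages were named after their values were seen. Some listed genes are not reported here. Labels give no batch or run.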

Additional observations from a re-analysis of the deposited data

Results flagged for a closer look

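Genotype ratios that pointed in opposite directions at the 2 ages were singled out after the values were seen. The difference between ages was not tested, since each group was 1 library. *Adra1a* had a ratio of 1.28 at 2 months and 0.515 at 6 months, so the later ratio was 0.404 times the earlier one. Against the control of the other age these ratios were 0.442 and 1.48, so each changed side of 1. *Prkar1a* had 0.911 and 1.13, a quotient of 1.24. With the GC trend subtracted its ratios were 1.4 and 1.87, which no longer pointed in opposite directions. Among the other pathway genes, those past 2-fold in opposite directions before the GC trend was subtracted were *Adrb3* (106 and 0.192, quotient 0.00181), *Maob* (2.09 and 0.345, quotient 0.165), *Sik1* (0.308 and 3.62, quotient 11.8), *Nr4a1* (0.135 and 4.42, quotient 32.7) and *Nr4a3* (0.0509 and 7.78, quotient 153). With the trend subtracted *Maob* stood at 3.31 and 0.599, so its 6-month ratio was no longer past 2-fold. *Nr4a1* then stood at 0.0871 and 2.82, and *Adrb3* at 57.9 and 0.137.

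*Nr4a1*, *Nr4a3* and *Sik1* are genes that cAMP and other acute stimuli induce within minutes to hours. Other genes of the same group on the list did not all share this turn. *Fos* had ratios of 0.71 at 2 months and 0.402 at 6 months, *Nr4a2* 0.153 and 0.9, and *Per1* 0.886 and 3.39. With the GC trend subtracted *Nr4a2* stood at 0.194 and 1.14, and *Per1* at 0.548 and 2.06. *Crem* and *Pde4b* were past 2-fold lower at both ages before the GC trend was subtracted. *Nr4a1* had normalized counts of 5101 (control) and 704 (csPIMT-/-) at the younger age and of 594 (control) and 2697 (csPIMT-/-) at the older. *Sik1* had 5445 and 1710, then 1565 and 5820. In both genes the 2-month control and the 6-month csPIMT-/- library were the high ones, and the older control had 0.111 times the *Nr4a1* and 0.275 times the *Sik1* of the younger. The part of the sex balance, in which the 2-month control also stood apart, was not tested.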

How the results depend on the processing

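No paired analysis was possible because each group was 1 library and the labels give no number that pairs them, and for the same reason no library could be left out of a group. Median-of-ratios, TMM and total-read scaling gave the same calls for the 9 genes, and shifted the log2 ratios of all genes by between -0.0637 and 0.00867. A 1.5-fold limit in place of 2-fold gave 2 of the 9 genes lower at 2 months, and 5 lower and 1 higher at 6 months. Among the other pathway genes it gave 29 lower and 26 higher at 2 months, and 32 lower and 30 higher at 6 months. The control of the other age gave 2 of the 9 lower at 2 months (*Adra1a* joined *Akap5*) and 6 other pathway genes higher at that age. Subtraction of the GC trend left 9 other pathway genes lower at 2 months and 14 at 6 months, and 1 of the 9 genes, *Adra1a*, past 2-fold between the controls, where 2 had been. When the whole interval had to lie past 2-fold, 2 of the 9 genes in place of 3 were lower at 6 months (without *Adrb1*) and 2 in place of 3 between the csPIMT-/- libraries, 1 of the 9 differed between the controls, and 7 other pathway genes were higher at 2 months. Of the 18 ratios of the 9 genes, 5 changed side of 1 with the GC trend subtracted, 4 with the other control and 1 with both controls summed. None of these was past 2-fold in the comparison of the same age. Reads were few for *Akap5* alone among the 9, with 18 and 2 reads in csPIMT-/- hearts. For the 1.5-fold limit, the other control and the whole interval, the share of all genes was not computed, so those counts stand alone. Counting intervals do not cover the spread between pools or PCR duplicates.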

Other observations

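Genes of catecholamine synthesis and of receptor desensitization were on the same list, and those given here were picked after their values were seen. *Th*, the rate-limiting enzyme of catecholamine synthesis, had 0 reads in both controls, 5 in the 2-month and 35 in the 6-month csPIMT-/- library. *Dbh*, which makes noradrenaline, had normalized counts of 375 (control) and 340 (csPIMT-/-) at the younger age and of 230 (control) and 155 (csPIMT-/-) at the older. Its ratios were 0.89 and 0.658. With the GC trend subtracted they were 0.591 and 0.436, the second of these past 2-fold lower. The receptor kinase *Adrbk1* (GRK2), which turns off β-receptors and is known to be raised in heart failure, had ratios of 1.53 and 1.82, but 0.995 and 1.17 with the GC trend subtracted. Its relative *Adrbk2* (GRK3) went the other way, with ratios of 0.516 and 0.813. The 7 receptor kinases and arrestins of the list had a median ratio of 1.41 at 2 months and 1.51 at 6 months, before the GC trend was subtracted.

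Over the 4 libraries the 5 genes with the profile most like that of *Akap5*, of 12822 with at least 100 reads in a library, were *Gm5860*, *Aqp4*, *Gm13152*, *2610507I01Rik* and *Mastl*. Likeness was the Euclidean distance between centred log2 profiles, which ran from 1.6 to 2.14 for these genes. *Aqp4*, which encodes a water channel, was the most abundant of them, with 2764 and 212 normalized counts at 2 months and 1386 and 26 at 6 months, and its ratios were 0.0752 (CI 0.0641–0.0877) and 0.0183 (CI 0.0118–0.0271). With the GC trend subtracted these ratios were 0.176 and 0.0497. Between the controls the 2 genes went opposite ways, with the older at 0.479 times the younger for *Aqp4* and 2.11 times for *Akap5*. A profile over 4 libraries holds few degrees of freedom, and *Akap5* itself rests on 2 reads in one of them.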
